A study of Mus musculus with 12 samples.

Results

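The genes described here restrain cytokine signalling. They are 7 members of the SOCS family (Cish, Socs1, Socs2, Socs3, Socs5, Socs6 and Socs7), the anti-inflammatory cytokine gene Il10 and its receptor genes Il10ra and Il10rb. They were chosen by gene symbol, with no measured value in the rule, though earlier results of these data were known. They make up 10 of the 16920 genes tabulated. All 10 passed the filter on low counts and are among the 12064 genes tested. Socs4, the remaining gene of the family, was not in the set.

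The libraries belong to a study of YTHDF1, a protein that reads m6A on RNA, in immune-mediated hepatitis, and address what its loss does to the LPS response of macrophages. Peritoneal macrophages came from C57BL/6 mice of 6 to 10 weeks, either WT or Ythdf1-/- (KO), the latter made with CRISPR/Cas9 in the whole animal and not in macrophages alone. Cells were cultured overnight and then held for 6 h with PBS or with LPS at 1 μg/mL, a bacterial cell wall component that activates Toll-like receptor signalling. Each of the 4 groups (WT PBS, WT LPS, KO PBS, KO LPS) had 3 libraries, which the methods of the study call biological replicates. Whether each library came from its own mouse is not given in the sources used here, so p-values measure the spread between these libraries. The series record names 6% starch broth over 3 days as the eliciting agent, whereas the methods of the study name thioglycollate.

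Libraries were close in depth, with 21546274 to 22017005 counts each. Levels are given as CPM, counts scaled to a common library size by TMM, and 3 counts, used as the floor, correspond to 0.105 to 0.187 CPM. The TMM factors were 1.26 to 1.31 in the PBS libraries and 0.744 to 0.808 in the LPS libraries, so the size of an LPS response depends on the scaling. Replicate 1 of WT LPS stood apart, with a mean chi-square per gene of 32.8 and 25.5 against replicates 2 and 3, which differed from each other by 3.09. Replicates 2 and 3 of KO LPS differed by 16.7, and the remaining pairs of a group by 2.77 to 7.44. All 8 macrophage markers were present, summing to between 17164 and 19936 CPM per library. Ythdf1 mRNA was not lost under the KO label: it averaged 43.5 ± 1.54 CPM in WT PBS, 57.2 ± 1.53 in KO PBS, 201 ± 9.37 in WT LPS and 198 ± 6.94 in KO LPS (SD, n = 3). These counts cover the whole gene and do not show whether its protein was made. The libraries are therefore named by their label, as KO-labelled.

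SOCS proteins work as a negative feedback loop. Cytokine receptors activate JAK kinases, which phosphorylate STAT transcription factors, and STATs in turn switch on SOCS genes. The SOCS proteins bind phosphorylated receptors or JAKs through an SH2 domain and, through the SOCS box, bring them to an ubiquitin ligase. Interleukin-10 is itself released by LPS-treated macrophages and signals through IL-10RA and IL-10RB to STAT3, which turns down many inflammatory genes.

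The regulatory sequence just upstream of a transcript start was on hand for 3 of the 10 genes (Cish, Socs1 and Socs3), from RefSeq on GRCm38.p6. These windows of 250 bases were searched on both strands for the STAT site TTCNNNGAA, the interferon-stimulated response element (GAAA, any 2 bases, GAAA) and the kappa B motif, since these factors carry cytokine and LPS signals. Of all 32851 windows of this length, 7.02%, 2.98% and 7.25% held these motifs, respectively. Socs1 held 2 overlapping response element matches, 83 to 74 and 77 to 68 bases before its start. Socs3 held 1 STAT match, 154 to 146 bases before the transcript start that the window precedes, which lies inside the gene span given for Socs3 below. Cish held none of the 3. A match describes letters in this window and was not tested for binding. The Socs1 window, on the minus strand at chr16:10785537-10785786, and the part of the Socs3 window around its match, on the minus strand at chr11:117969501-117969530, are shown 5′ to 3′ because these genes had the highest LPS levels of the SOCS family, with the matches in capitals:
Socs1: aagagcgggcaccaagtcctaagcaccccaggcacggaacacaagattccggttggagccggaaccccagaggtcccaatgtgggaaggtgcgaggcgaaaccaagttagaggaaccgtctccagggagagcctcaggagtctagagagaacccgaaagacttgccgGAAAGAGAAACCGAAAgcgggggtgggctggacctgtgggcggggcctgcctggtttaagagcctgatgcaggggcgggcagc
Socs3: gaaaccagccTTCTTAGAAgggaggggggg

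To see how the ligand responded, Il10 (gene 16153, chromosome 1 from 131019845 to 131024970, GRCm38.p6) was examined first. Il10 was close to silent without LPS. The WT PBS libraries held 0.145, 0.250 and 0.107 CPM, which are 4, 7 and 3 counts. The KO-labelled PBS libraries held 0.06998, 0.140 and 0.283 CPM, which are 2, 4 and 8 counts. With LPS, Il10 stood at 75.0, 98.0 and 91.9 CPM in the WT libraries. In the KO-labelled LPS libraries it stood at 122, 113 and 101 CPM, so that every KO-labelled value lay above every WT value, the nearest pair being 101 and 98.0. The fitted LPS response of Il10 was 510-fold in WT (95% interval 377 to 691) and 661-fold in KO-labelled cells (490 to 892). The PBS levels rest on a handful of counts, so these fitted folds also depend on the small prior count that edgeR adds. The intervals were derived from the test statistic, with SEs of 0.206 in WT and 0.203 in KO-labelled cells on the log2 scale. The difference between these responses, tested below on the same libraries, had an SE of 0.660, so the intervals are too narrow.

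The receptor chains behaved unlike the ligand. Il10ra (gene 16154, chromosome 9 from 45253837 to 45269149) encodes the ligand-binding chain. It rose from 65.9, 67.3 and 64.3 CPM to 221, 207 and 207 CPM in WT cells. In KO-labelled cells it went from 62.2, 61.0 and 62.2 CPM to 195, 187 and 202 CPM. LPS thus raised Il10ra 3.22-fold in WT (2.97 to 3.49) and 3.15-fold in KO-labelled cells (2.91 to 3.42). Il10rb (gene 16155, chromosome 16 from 91406157 to 91425834) encodes the chain shared with other receptors of this cytokine family. Its WT levels were 317, 312 and 300 CPM with PBS and 274, 283 and 291 CPM with LPS. Its KO-labelled levels were 323, 325 and 318 CPM with PBS and 364, 380 and 374 CPM with LPS. Il10rb therefore moved little, and in opposite directions: the log2 fold change was -0.13 in WT (SE 0.050, adjusted p = 0.0243, edgeR quasi-likelihood test) and 0.21 in KO-labelled cells (SE 0.050, adjusted p = 0.00102). The KO-labelled direction depended on scaling and turned to -0.15 with upper-quartile scaling and to -0.59 with library totals alone, while the WT call was lost with RLE scaling (-0.09), with DESeq2 (-0.09), in a fit of only the libraries compared (-0.13) and without WT PBS replicate 1 (-0.11) or 2 (-0.13).

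Among the SOCS genes, Socs3 reached the highest level. Socs3 (gene 12702, chromosome 11 from 117966079 to 117970336, minus strand) encodes the inhibitor that binds the interleukin-6 receptor subunit gp130 and its kinases. WT libraries held 14.5, 15.1 and 19.4 CPM with PBS and 1633, 1529 and 1576 CPM with LPS. KO-labelled libraries held 11.3, 13.9 and 15.9 CPM with PBS and 2013, 1986 and 1963 CPM with LPS. LPS raised Socs3 96.7-fold in WT (80.4 to 116) and 145-fold in KO-labelled cells (120 to 176).

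Socs1 (gene 12703, chromosome 16 from 10783808 to 10785536, minus strand), the inhibitor best known for damping interferon signalling, rose from a lower base. In WT cells it went from 1.84, 1.65 and 1.61 CPM to 175, 181 and 165 CPM. In KO-labelled cells it went from 1.61, 1.40 and 1.77 CPM to 148, 160 and 135 CPM. The LPS response was 102-fold in WT (88.1 to 118) and 92.5-fold in KO-labelled cells (79.8 to 107).

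Cish (gene 12700, chromosome 9 from 107296659 to 107302784, plus strand) encodes CIS, the founding member of the family and a target of STAT5. It was barely detected with PBS, at 0.434, 0.286 and 0.107 CPM in WT and 0.210, 0.105 and 0.319 CPM in KO-labelled cells. With LPS it stood at 26.8, 23.9 and 24.0 CPM in WT cells. The KO-labelled LPS libraries held 70.8, 64.9 and 77.5 CPM, each more than any WT library. The fitted response was 88.7-fold in WT (66.5 to 118) and 328-fold in KO-labelled cells (250 to 430). As for Il10, these intervals are too narrow. Their log2 SEs were 0.196 in WT and 0.184 in KO-labelled cells, against 0.515 for the difference between these responses. Cish counts carried decimals, which arise where a read is shared between genes, in 3 of 3 KO-labelled LPS libraries and 2 of 3 WT LPS libraries.

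Socs2 (gene 216233, chromosome 10 from 95383903 to 95417321), known for limiting growth hormone signalling, stayed low throughout. Its WT counts were 6, 12 and 15 with PBS (0.217, 0.429 and 0.536 CPM) and 19, 28 and 33 with LPS (1.10, 1.59 and 1.86 CPM). Its KO-labelled counts were 8, 16 and 12 with PBS (0.280, 0.561 and 0.425 CPM) and 64, 80 and 84 with LPS (3.93, 4.90 and 5.22 CPM). The LPS response of Socs2 was 3.81-fold in WT (2.36 to 6.16) and 10.96-fold in KO-labelled cells (7.39 to 16.3), with wide intervals that follow from the small counts.

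Socs7 (gene 192157, chromosome 11 from 97362292 to 97398542) rose more modestly. WT libraries went from 16.9, 13.3 and 15.6 CPM to 68.7, 51.0 and 51.6 CPM, where the high value is the WT LPS replicate that stood apart. KO-labelled libraries went from 13.1, 15.7 and 16.5 CPM to 44.3, 35.6 and 45.8 CPM. The response was 3.74-fold in WT (3.05 to 4.59) and 2.77-fold in KO-labelled cells (2.25 to 3.41).

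Socs6 and Socs5 fell instead. Socs6 (gene 54607, chromosome 18 from 88865169 to 88894364), whose product binds receptor tyrosine kinases, had the third highest PBS level per length of the 10 genes. It dropped from 78.4, 83.5 and 85.2 CPM to 23.4, 25.8 and 25.1 CPM in WT cells. In KO-labelled cells it dropped from 101, 93.8 and 94.5 CPM to 22.6, 22.8 and 25.9 CPM. The decrease was 3.32-fold in WT and 4.05-fold in KO-labelled cells. Socs5 (gene 56468, chromosome 17 from 87107278 to 87137647) eased from 10.6, 10.9 and 10.005 CPM to 7.34, 8.99 and 6.82 CPM in WT cells. In KO-labelled cells it went from 12.1, 10.7 and 11.2 CPM to 7.61, 8.75 and 7.77 CPM, a decrease of 1.36-fold in WT and 1.41-fold in KO-labelled cells.

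**Figure D1:**
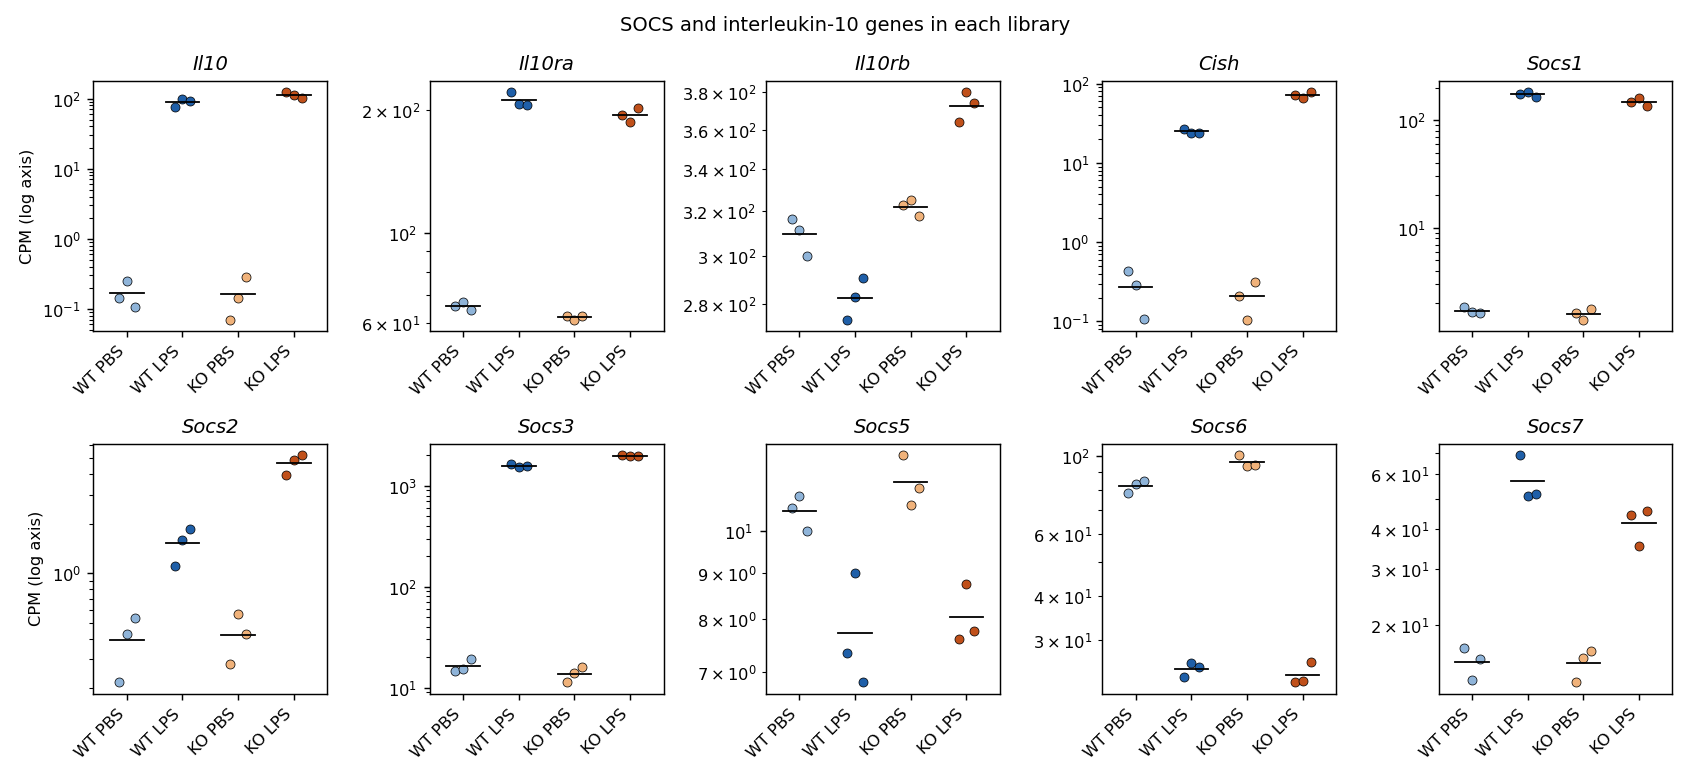
CPM of each gene (log axis, with its own range in each panel) in every library of the 4 groups, where a point is a library and a line is the mean of 3. Il10, Cish, Socs1 and Socs3 rose from near or below 20 CPM with PBS to between 23.9 and 2013 CPM with LPS, Socs5 and Socs6 fell with LPS, and the KO-labelled LPS libraries of Il10rb lie above the rest at 364 to 380 CPM.

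Counted together, all 10 genes passed the threshold of 0.05 for LPS against PBS in both labels. In WT cells 7 were higher and 3 lower, where 76.7% of all genes tested were called, 36.5% higher and 40.2% lower. In KO-labelled cells 8 were higher and 2 lower, with Il10rb changing side, where 79.9% of all genes were called, 38.8% higher and 41.1% lower. Their median log2 fold change was 1.92 in WT and 2.56 in KO-labelled cells, beside -0.05 and -0.04 over all genes tested. In bulk samples, fewer cells of a type and less RNA per cell cannot be told apart.

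**Figure D2:**
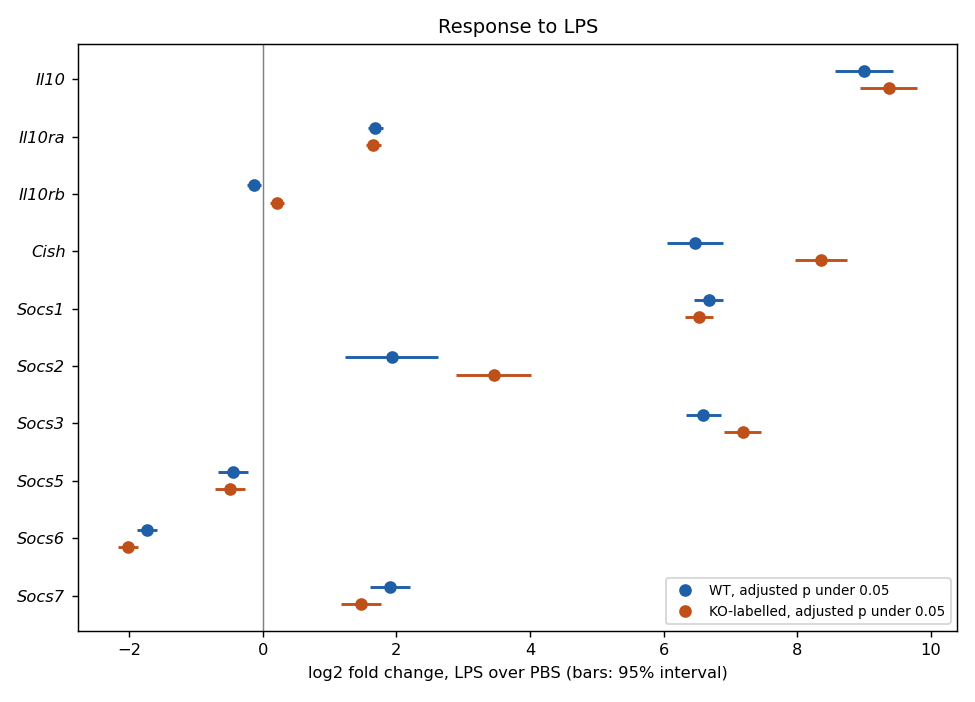
Log2 fold change of LPS over PBS for each gene, with 95% intervals, in WT (blue) and KO-labelled (orange) libraries, all with adjusted p under 0.05. The values run from -1.73 for Socs6 to 8.996 for Il10 in WT, and the intervals of Cish, Socs2, Socs3 and Il10rb in the 2 labels do not meet. The intervals of Il10 and Cish are too narrow for their few PBS counts.

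Levels were then compared between genes as CPM per kilobase of the longest principal transcript in GENCODE, because counts grow with length. With PBS, Il10rb led at 167 ± 4.54 CPM per kilobase in WT and 174 ± 1.996 in KO-labelled cells (SD, n = 3). It was followed by Il10ra (18.8 in WT), Socs6 (13.6) and Socs3 (6.40), none of which overlapped its neighbour. Socs5 (2.26) and Socs7 (2.18) overlapped, Socs1 was lower at 0.584, and Socs2, Il10 and Cish overlapped at the bottom between 0.0967 and 0.177. LPS reordered the set. Socs3 took the lead at 619 ± 20.3 CPM per kilobase in WT and 779 ± 9.78 in KO-labelled cells, ahead of Il10rb at 153 and 201. In WT LPS libraries Il10 (67.4), Il10ra (60.6) and Socs1 (59.8) overlapped and could not be ordered. The same held for Cish (8.73) and Socs7 (8.14). In KO-labelled LPS libraries Il10 (85.6) lay above Il10ra (55.7), and Cish (24.9) lay well clear of Socs7 (5.97). Socs2, last in WT LPS at 0.683, overlapped Socs5 in KO-labelled LPS at 2.11 against 1.73. The Socs1 transcript used, of 2908 bases, is longer than the 1729 bases of its RefSeq gene, so its level per length is uncertain. With the union of all annotated exons as the length, Socs2 fell below Socs5 in KO-labelled LPS (0.491 against 1.25) and Cish below Socs7 in WT LPS (3.88 against 7.86). The PBS order of Socs5 and Socs7 and of the lowest 3 genes changed too, while Il10rb still led with PBS, at 81.3 in WT.

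**Figure D3:**
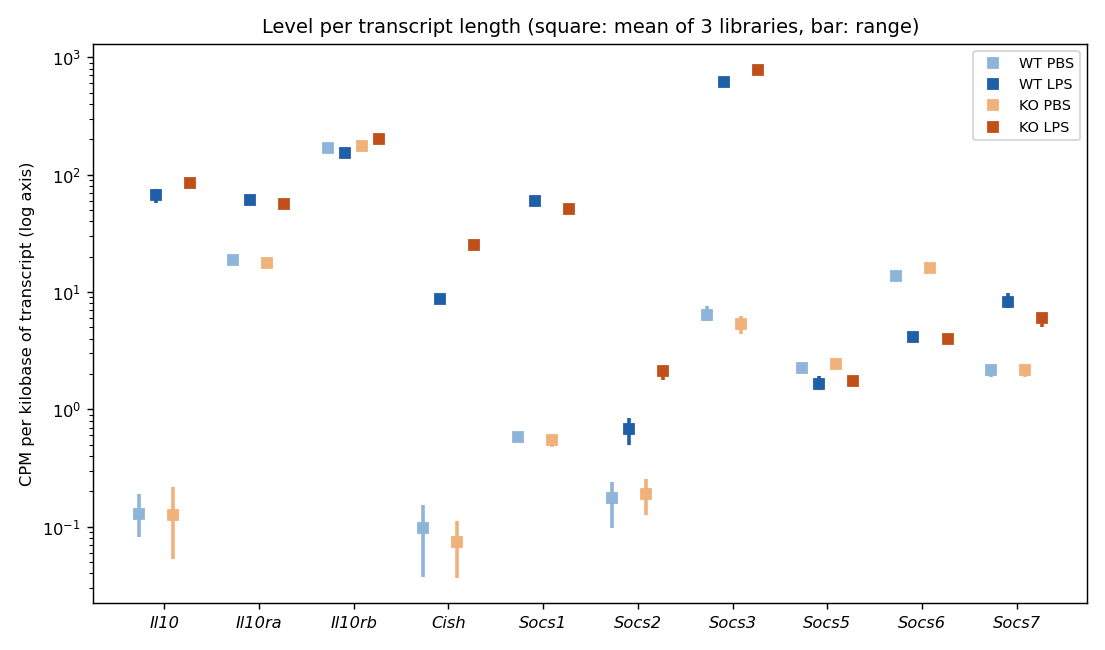
CPM per kilobase of transcript (log axis) for each gene in the 4 groups, with squares for the mean of 3 libraries and bars for their range. Il10rb leads with PBS at 167 and 174, Socs3 leads with LPS at 619 and 779, and Cish shows the widest gap between the LPS groups after Socs2.

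With PBS, the label made little difference to these genes. Socs6 alone was called, higher in KO-labelled cells by 1.17-fold (log2 0.23, SE 0.063, adjusted p = 0.0153), with its KO-labelled libraries at 93.8 to 101 CPM all above the WT libraries at 78.4 to 85.2. That is 1 of 10 genes, where 25.3% of all genes tested were called, 12.3% higher. Il10ra was lower and Il10rb higher without overlap between the libraries, as 48.1% of all genes were, yet neither passed the threshold (log2 -0.09 with adjusted p = 0.251, and 0.06 with adjusted p = 0.446). Socs3 had a log2 difference of -0.26 with overlapping libraries (interval -0.50 to -0.01, adjusted p = 0.119), which passed only when KO PBS replicate 3 was left out (-0.35). The low genes were not resolved at this depth: the intervals ran from -1.37 to 1.32 for Il10, from -1.42 to 0.67 for Cish and from -0.72 to 0.91 for Socs2.

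Under LPS, 7 of the 10 genes differed by label, 5 higher and 2 lower in KO-labelled cells. Of all genes tested, 41.4% were called, 22.1% higher and 19.3% lower. The median log2 difference was 0.20 over the 10 genes and 0.00 over all genes tested. Cish and Socs2 moved most. Cish was 2.86-fold higher in KO-labelled cells (2.47 to 3.31, adjusted p = 1.69e-08). Socs2 was 3.07-fold higher (2.17 to 4.34, adjusted p = 5.40e-05). Both calls held under every alternative in which the gene was tested, and neither gene had overlapping libraries, as 45.6% of all genes tested had none.

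The other differences under LPS were smaller than 1.4-fold. Il10rb was 1.32-fold higher in KO-labelled cells (adjusted p = 1.29e-05). Il10 was 1.27-fold higher (1.10 to 1.47, adjusted p = 0.0116) and Socs3 1.26-fold higher (1.09 to 1.45, adjusted p = 0.0114). In the other direction, Socs7 was 1.36-fold lower (adjusted p = 0.0140) and Socs1 1.17-fold lower (adjusted p = 0.0113). Il10ra had non-overlapping libraries, with KO-labelled cells lower, and a log2 difference of -0.12 that missed the threshold (adjusted p = 0.0832). Socs5 (0.06, interval -0.19 to 0.30) and Socs6 (-0.06, interval -0.22 to 0.10) overlapped.

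Some of these smaller calls rested on single libraries or on the scaling. The Il10 call was lost without KO LPS replicate 1 (log2 0.28) and with upper-quartile scaling (0.28) or totals alone (0.25). The Socs1 call was lost without KO LPS replicate 3 (-0.17), the Socs7 call without KO LPS replicate 2 (-0.34) and the Socs3 call with totals alone (0.24). Il10ra gained a call as lower with upper-quartile scaling (-0.19), totals alone (-0.21), DESeq2 (-0.12) and at least 10 counts in every library (-0.14). Without the WT LPS replicate that stood apart, the same 7 genes were called, and the log2 difference became 0.24 for Il10 and -0.29 for Socs7.

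Markers of other cells were read beside these differences. Of the mast cell list, 6 of 7 genes were tabulated and their sum was 1.02 to 1.42 CPM in WT LPS and 2.88 to 3.62 CPM in KO-labelled LPS libraries, in the same direction as Cish and Socs2. Nearly all of it was Kit, at 1.02 to 1.20 CPM and 2.81 to 3.44 CPM, whereas the granule protease genes Cpa3 and Mcpt4 held 0 counts in every LPS library. The T cell list summed to 10.5 to 14.1 CPM in WT LPS and 5.16 to 5.57 CPM in KO-labelled LPS libraries. Most of that was Lck, and Cd3e held at most 1 count in any library. Neutrophil markers summed to 11.9 to 14.5 and 13.9 to 21.9 CPM, in the same order. In any library, B cell markers summed to at most 2.35 CPM, eosinophil markers to 1.88 to 3.72 CPM and dendritic cell markers to 0.770 to 3.67 CPM. Mesothelial markers summed to 6.79 to 7.46 CPM in WT and 3.47 to 5.91 CPM in KO-labelled libraries. The part of these cells in the results was not tested.

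**Figure D4:**
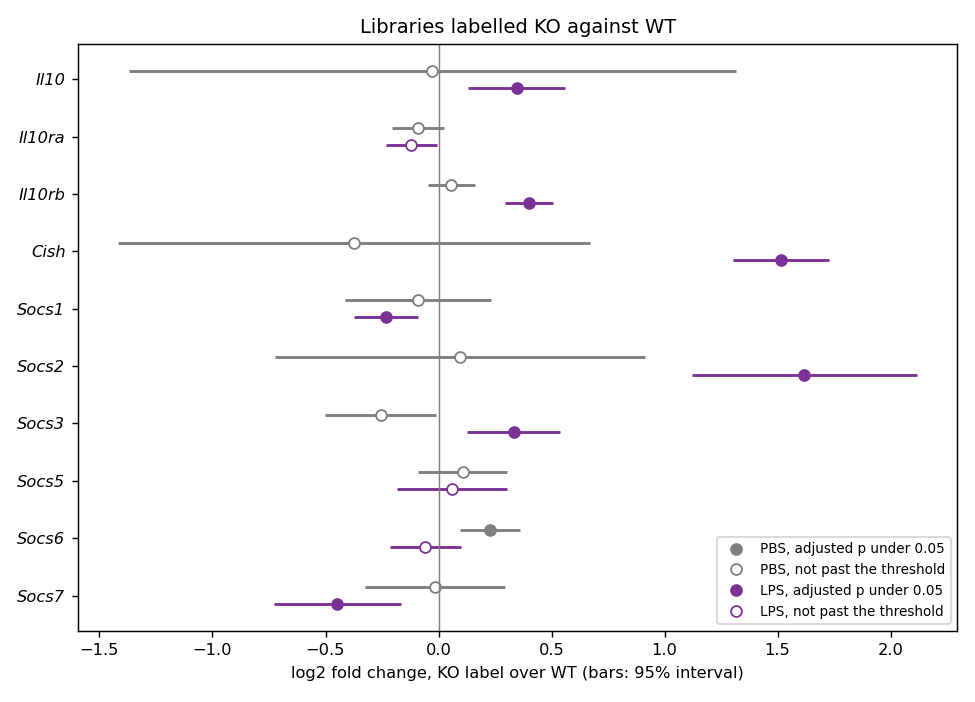
Log2 fold change of KO-labelled over WT libraries for each gene, with 95% intervals, under PBS (grey) and LPS (purple), where filled points passed an adjusted p of 0.05. Socs6 is the filled point under PBS at 0.23, and under LPS the filled points run from -0.45 for Socs7 to 1.62 for Socs2.

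Whether the LPS response itself differed by label was tested as an interaction. It passed for 4 of the 10 genes, each with a larger or more positive response in KO-labelled cells, where 18.0% of all genes tested were called, 9.78% in that direction and 8.24% in the other. Cish had a response 3.70 times as large (log2 1.89, interval 0.80 to 2.98, adjusted p = 0.0187). Socs2 followed at 2.87 times (log2 1.52, interval 0.54 to 2.51, adjusted p = 0.0319). Socs3 stood at 1.503 times (log2 0.59, interval 0.27 to 0.91, adjusted p = 0.0135), and Il10rb at 1.27 times (log2 0.34, interval 0.19 to 0.49, adjusted p = 0.00323). For Cish and Socs2 the interaction rests on the few PBS counts as much as on the LPS levels. The Cish call was lost without WT PBS replicate 1 (1.37), WT PBS replicate 2 (1.86) or KO PBS replicate 2 (1.53). The Socs2 call was lost without any one of WT PBS replicates 2 (1.46) and 3 (1.24), KO PBS replicates 1 (1.26) and 3 (1.49) and KO LPS replicate 3 (1.44). The Il10rb call was lost with totals alone (0.20).

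The other 6 genes did not pass. Socs6 came nearest, with a response lower by 0.28 on the log2 scale (adjusted p = 0.0544), and it passed under 9 of the alternatives at -0.30 to -0.42, including the fit without WT LPS replicate 1 (-0.32). Socs7 had -0.43 (interval -0.85 to -0.01, adjusted p = 0.148) and passed with totals alone (-0.57). Socs1 (-0.14, interval -0.50 to 0.21), Socs5 (-0.05, interval -0.36 to 0.27) and Il10ra (-0.03, interval -0.19 to 0.13) were near 0. For Il10 the interval was wide, from -1.03 to 1.78 around 0.37, as its PBS counts set the precision.

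**Figure D5:**
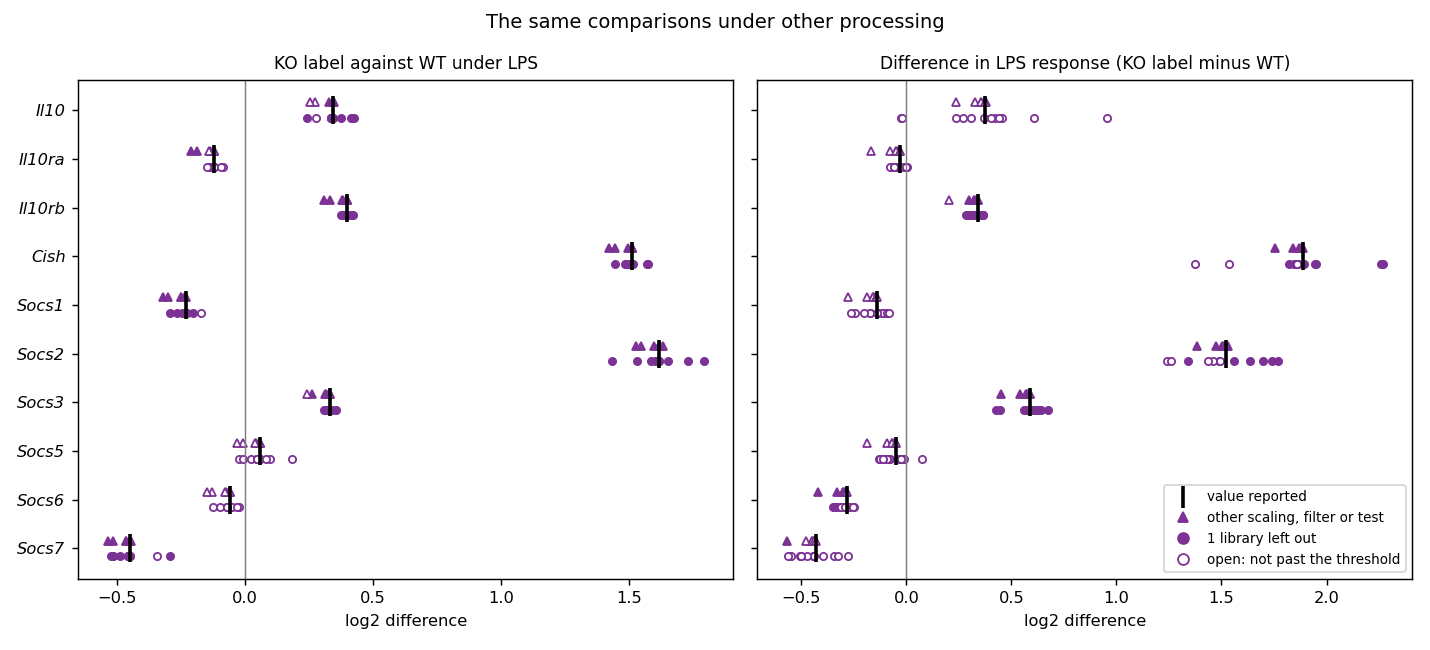
Log2 difference of each gene for KO-labelled against WT under LPS (left) and for the difference in LPS response (right), where black lines are the values reported, triangles other scalings, filters or tests, circles fits without 1 library, and open symbols miss the threshold. Under LPS every symbol of Cish, Socs2 and Il10rb is filled, whereas for the difference in response open symbols appear for Cish, Socs2 and Il10rb.

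The surrounding pathway was read from 7 lists of 74 genes, of which 71 were tested. LPS moved most of them: 67 were called in WT cells (54 higher, 13 lower) and 68 in KO-labelled cells (57 higher, 11 lower). That is 94.4% and 95.8% of those tested, where 76.7% and 79.9% of all genes were called, so the counts of the single lists that follow are read against 76.7%. Upstream of the SOCS genes, all 11 JAK and STAT genes were called in WT, 10 higher, with a median log2 fold change of 1.70, and Jak2 (4.36) and Stat2 (4.03) rose most of those named. The cytokines that act through these kinases were called higher in 7 of 7 tested genes, with Il6 at 11.83 (a value that depends on the prior count, since its WT PBS libraries held 2 to 4 counts), and their median was 3.83 in WT with the 3 genes at or under the floor in every PBS library set at their lower bound. Receptors that SOCS proteins limit were called in 15 of 15 (12 higher, 3 lower, median 1.15). The ligase partners of the SOCS box were called in 6 of 7 (5 higher, 1 lower, median 0.39), led by Cul2 (1.40). Other brakes on JAK and STAT were called in 9 of 10 (7 higher, 2 lower, median 0.80), led by Usp18 (6.23), which binds the interferon receptor. Known effector genes of interleukin-10 were called in 8 of 9 (7 higher, 1 lower, median 2.76), led by Tnip3 (6.56) and Il1rn (5.79), and regulators of Il10 transcription in 11 of 12 (6 higher, 5 lower, median 0.71), with Nfkb1 (3.49) and Map3k8 (2.77).

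Between labels, 26 of the 71 pathway genes were called under PBS (12 higher, 14 lower) and 36 under LPS (31 higher, 5 lower). These are 36.6% and 50.7% of those tested, where 25.3% and 41.4% of all genes were called. The median log2 difference over the 71 was 0.03 under PBS and 0.18 under LPS, beside 0.00 and 0.00 over all genes tested. Cytokines had the largest median under LPS, 1.56, with 6 of 7 called, all higher. Csf2, which signals to STAT5, was at 0.404 to 0.902 CPM in WT and 7.65 to 11.04 CPM in KO-labelled LPS libraries. Csf3, the granulocyte colony-stimulating factor, was at 22.3 to 25.8 and 89.5 to 108 CPM. Of the JAK and STAT genes 5 of 11 were called under LPS (45.5%, near the 41.4% of all genes), 3 higher and 2 lower, with a median of 0.04. Jak2, the kinase that the Csf2 receptor uses, was 1.69-fold higher (adjusted p = 2.17e-06), and Jak3, the kinase of the common gamma chain, was 1.295-fold lower (adjusted p = 0.0210). Receptors were called in 7 of 15 (46.7%, near the 41.4% of all genes), all higher, with Ifngr1 at 1.55-fold and Ifnar1 at 1.34-fold. The SOCS box partners Arih2 and Cul5 were 1.39-fold and 1.26-fold higher and were the only 2 of 7 called under LPS, a share of 28.6% that is below that of all genes. Some of these genes already differed the same way under PBS: Jak2 (1.33-fold higher), Jak3 (1.29-fold lower), Ifngr1 (1.37-fold higher) and Cul5 (1.20-fold higher). None of them passed the interaction. Ifnar1 and Arih2 were not called under PBS and passed the interaction.

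The other brakes were called in 5 of 10 under LPS, 4 higher and 1 lower, where 41.4% of all genes were called. Ptpn6, the phosphatase SHP-1, was 1.32-fold lower in KO-labelled cells (adjusted p = 1.02e-05), and the phosphatase gene Ptpn2 was 1.302-fold higher. Of the interleukin-10 effector genes 4 of 9 were called (44.4%, near the share of all genes, with 3 higher and 1 lower), with Hmox1, heme oxygenase 1, at 1.55-fold higher and Il1rn, the interleukin-1 receptor antagonist, at 1.41-fold higher. Il1rn had been 2.29-fold lower in KO-labelled cells under PBS (adjusted p = 2.27e-08). Among regulators of Il10 transcription 7 of 12 were called under LPS, 6 of them higher. Sik1, a kinase that holds back CREB coactivators, was 1.95-fold lower, at 5.69 to 6.20 against 11.2 to 12.8 CPM, and the repressor gene Prdm1 was 1.92-fold higher. Under PBS, Sik1 had been 1.20-fold higher and Prdm1 already 1.44-fold higher. The interaction passed for Sik1 and not for Prdm1.

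Finally, the genes whose pattern was most like that of the 4 strongly induced members were sought over the 12 libraries among 9319 genes. Likeness was the root mean square difference of mean-centred log2 CPM, where a smaller value is closer. Socs1 was closest to Usp18 (0.19), Ifi47 (0.20) and Tnip3 (0.23). Socs3 was closest to Rasgrp1 (0.22), Tnip3 (0.23) and Slc7a2 (0.24). The nearest to Il10 were Tgtp2 (0.29), Ifit1 (0.35) and Fpr1 (0.37). The nearest to Cish were Inhba (0.39), Plagl1 (0.47) and Ccl3 (0.48), each farther than the neighbours of Socs1 and Socs3. All of these genes had higher means with LPS than with PBS in both labels, which follows from choosing them by likeness to induced genes. Every distance was taken over the same libraries. The PBS libraries of Cish and Il10 held few counts, and the part of this in their distances was not tested.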

How the data were processed

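The deposited files hold expected counts (estimated counts per gene) for 16920 genes in each of 12 libraries, which the authors had not scaled between libraries. Reads were single-end, 50 bases, from a BGISEQ-500. The submitters' processing notes name Bowtie2, RSEM 1.3.1 and GRCm38.p6, whereas the methods of the study name STAR and HTSeq with no build. From 24.6% to 26.9% of a library's values had decimals, which arise where reads are shared between genes, and all values were rounded.

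Counts were tested in R 4.3.3 with edgeR 4.0.16 (limma 3.58.1). filterByExpr (minimum count 10, minimum total 15) left 12064 genes. TMM scaling and a robust quasi-likelihood fit with 1 mean per group over all 12 libraries gave 5 contrasts, with two-sided p-values adjusted by Benjamini-Hochberg over all genes tested (threshold 0.05) and 95% intervals. The biological coefficient of variation was 6.99%. The floor of 3 counts covers counting error. Intervals used an SE taken as the absolute log2 fold change divided by the square root of the F statistic of the test. They are meant to cover counting error and the spread between libraries, but are too narrow for the LPS responses of Il10 and Cish. Reads carried no molecular identifiers.

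The members and lists were chosen with earlier results of these data known. All 10 members are named in each contrast. From each of the 7 pathway lists at most 2 genes per contrast were picked, those called with the largest log2 fold change whose higher group averaged 5 CPM or more. Not every pick is printed, and a gene picked in one contrast may also be given in another. For the likeness of patterns, the 3 closest genes are named for each of Socs1, Socs3, Cish and Il10. Positions and promoters are from RefSeq GRCm38.p6 (16803 of 16920 genes matched, 99.3%) and transcript lengths from GENCODE on GRCm38. The alternatives were RLE, upper-quartile and totals scaling, no filter, DESeq2 1.42.0, a floor of 10 counts in all libraries, unrounded counts, only the libraries compared, a replicate block and leaving out each library. The steps were tested on simulated counts with no LPS response, in which 200 genes changed by 1 on the log2 scale in KO LPS. Of these, 90.5% were recovered for the label under LPS and 86.5% for the difference in LPS response. This setting cannot test the scaling under a broad LPS response or differences smaller than that. Markers of macrophages, B cells, T cells, mast cells, neutrophils, eosinophils, dendritic cells and mesothelium were summed per library. Raw reads were not analysed here, and 1 pathway gene is not reported here.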

Additional observations from a re-analysis of the deposited data

Results flagged for a closer look

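The LPS response differed between the WT and KO-labelled libraries by a test of the difference itself (edgeR quasi-likelihood, adjusted over all genes tested) for 4 of the SOCS and interleukin-10 genes. The log2 differences in response, KO-labelled minus WT, were 1.89 for Cish, 1.52 for Socs2, 0.59 for Socs3 and 0.34 for Il10rb. Of all genes tested, 18.0% passed this test, 9.78% in that direction. The Cish call was lost in 3 and the Socs2 call in 5 of the fits without 1 library, and the Il10rb call with library totals alone. The targeted gene Ythdf1 had a difference of -0.42, as its KO-labelled level was higher with PBS and close to WT with LPS.

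Pathway genes named by the rule differed as well. The signalling gene Stat2 had a log2 difference in response of 0.39 and the cytokine gene Lif of 1.97. Csf3 had a fitted value of 5.26, which depends on the prior count because its KO-labelled PBS libraries held 0 or 1 counts. The receptor genes Csf2rb and Csf2rb2, near copies of each other between which reads can be shared, had 0.74 and 0.72. Arih2 had 0.35, Ptpn6 -0.47 and Usp18 0.46. The difference was 1.69 for Il1rn, 0.65 for Hmox1, -1.22 for Sik1 and 0.50 for Nfkb1.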

How the results depend on the processing

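The 50 results on the 10 genes were recomputed under 1025 alternatives. In 988 the side of the threshold and the direction of any call were kept, and 37 changed, 2 of them in the direction of the call. A change of sign in a result that was not called counts among the 988, as for Il10 by label under PBS (-0.028, up to 0.369). Both reversals concern Il10rb for LPS against PBS in KO-labelled cells, at -0.15 with upper-quartile scaling and -0.59 with library totals alone, and the cause was not tested. The number of the 10 genes called ranged, without 1 library, from 1 to 2 for the label under PBS (1 with all libraries, 2 without KO PBS replicate 3) and from 2 to 5 for the difference in LPS response (4 with all, 2 without WT PBS replicate 2). Over all genes, calls for the label under PBS numbered 3058, 4629 in a fit of only the libraries compared, and 2020 to 3887 without 1 library, the lowest without KO PBS replicate 1. Requiring 10 counts in every library removed Cish, Il10 and Socs2 from testing, and a fit of only the libraries compared cannot give the difference in response.

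Scaling moved the median of all genes for LPS against PBS by -0.31 (upper quartile) and -0.66 (totals) in WT and by -0.36 and -0.80 in KO-labelled cells. The share of calls that were higher fell from 47.6% to 32.6% and 21.2% in WT, from 48.6% to 33.8% and 20.8% in KO-labelled cells, from 53.4% to 41.6% and 37.9% for the label under LPS, and from 54.3% to 43.1% and 24.4% for the difference in response, while for the label under PBS it went from 48.6% to 42.2% and 61.6%.

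The labels do not say whether the replicate numbers pair the libraries. Of 18 correlations of same-numbered deviations, 1 exceeded 0.1 (range -0.055 to 0.116), which cannot exclude pairing. A library correlated best with its own number in 17 of 36 cases, more than an even split over 3 numbers would give but not in every case, which is a hint from the data and not from the design. With the replicate block, 10, 10, 1, 7 and 4 of the 10 genes were called in the 5 contrasts, as without it, and 9267, 9631, 2969, 5030 and 2132 of all genes. Depth limits Il10, Cish and Socs2 with PBS, where a library held 2 to 16 counts of each.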
